A study of Mus musculus with 6 samples.

Results

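Stk38 and 9 genes of the Hippo pathway were followed in epididymal adipose tissue of HuRAKO and control mice. Stk38, which encodes the kinase NDR1, was chosen by its gene FPKM, which was higher in the libraries labelled HuRAKO than in those labelled control, and Stk38l, Lats1, Lats2, Mob1a, Mob1b, Sav1, Yap1, Wwtr1 and Tead1 were chosen as its pathway partners. All 10 genes were matched by name in the deposited gene table, in 11 of its 13116 rows, because 2 rows carried the name Lats2. FPKM is a fragment count scaled for transcript length and library size. A gene was tested where its 6 values averaged 0.5 FPKM or more, which held for all 10 genes and for 12847 genes in all.

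The RNA-seq covered 6 C57BL/6 mice that all carried HuRflox/flox alleles and all received a high-fat diet for 16 weeks, starting at 8 weeks of age. The 3 mice labelled HuRAKO were positive for AdipoQ-Cre and the 3 control mice were negative for it. Adipoq, which lends its promoter to the Cre, is an adipocyte gene, so other cells of the fat pad keep HuR by design. Depth per mouse is unknown, the labels do not say what the replicate numbers stand for, and p-values measure only the spread between these 6 mice.

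The Hippo pathway is a kinase cascade that restrains tissue growth. The MST kinases, held by the scaffold SAV1, activate the LATS kinases together with their MOB1 coactivators, and LATS phosphorylates YAP and its relative TAZ, the product of Wwtr1, so that both stay out of the nucleus. Without that phosphorylation YAP and TAZ bind TEAD factors on DNA and switch on target genes, and TAZ is also known in the adipose lineage as a repressor of PPARγ. The NDR kinases STK38 and STK38L are the nearest relatives of LATS, and MOB1 binds them too.

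Elavl1, the gene that encodes HuR, was measured at 4.66, 5.24 and 5.63 FPKM in libraries labelled HuRAKO, and at 3.93, 4.85 and 4.98 FPKM in libraries labelled control. Its mRNA was thus not lower in the libraries labelled HuRAKO (log2 fold change 0.15, adjusted p = 0.807 from limma), so every direction below rests on the labels alone. These are levels of the whole gene in whole tissue. By qPCR and western blot, the study reports less HuR mRNA and protein in adipose tissue of HuRAKO mice, with the protein lost in adipocytes. The values sum to between 250270 and 264055 FPKM per library. Control replicate 3 stood apart from the rest, at 48.3 on the first principal component (41.1% of the variance) against -14.5 to -3.09 for the other 5 mice.

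The 11 adipocyte markers summed to 6230 to 6875 FPKM in libraries labelled HuRAKO and to 4996 to 7143 FPKM in libraries labelled control, the lowest in control replicate 3, with 0 calls. Of 10 endothelial markers, 4 were higher past the study's thresholds (1.27% of all genes were), with summed levels of 340 to 522 FPKM in libraries labelled HuRAKO and 201 to 314 FPKM in libraries labelled control. The fold was read on the log2(FPKM + 1) scale, on which Tie1, with a fold of 1.53 between FPKM means, fell short. Of 10 smooth muscle and pericyte markers, 3 were higher, with sums of 341 to 497 FPKM against 194 to 261 FPKM in control. Acta2 alone gave 135 to 297 FPKM of these sums in libraries labelled HuRAKO and 72.9 to 118 FPKM in control. Of the 10 log2 fold changes 7 were above 0, and those of Cnn1, Des and Cspg4 were below. With each marker centred on its mean, the median of this list was lowest in HuRAKO replicate 3, at -0.50 on the log2 scale. Of 10 mesothelial markers, 8 were lower (1.35% of all genes were), with sums of 139 to 206 FPKM against 249 to 411 FPKM in control. No marker of these 3 lists was at 0 in any mouse. Macrophage markers had 0 calls, with sums of 753 to 1110 FPKM against 625 to 1660 FPKM in control, the highest in control replicate 3. In such bulk tissue, fewer cells of a type and less RNA per cell cannot be told apart.

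Stk38 (ENSMUSG00000024006.16, chr17:28970885-29007945 on the minus strand of GRCm38) was measured at 28.8, 46.9 and 32.2 FPKM in libraries labelled HuRAKO, and at 11.2, 12.1 and 12.6 FPKM in libraries labelled control. The groups did not overlap, and the lowest HuRAKO library stood well above the highest control library. Its mean was 36.0 ± 9.65 FPKM in HuRAKO against 11.9 ± 0.699 FPKM in control libraries (SD, n = 3 each), a fold of 3.01 and a log2 fold change of 1.49 ± 0.19 (SE) on the log2(FPKM + 1) scale. These values chose the gene, so no test is given. The spread also differed between the groups, with a coefficient of variation of 26.8% in HuRAKO and 5.85% in control libraries. HuRAKO replicate 2 had the highest level, and without it the log2 fold change was 1.28. The same library had the highest sums of endothelial and of smooth muscle markers, 522 and 497 FPKM, and the part of these cells in the level of Stk38 was not tested.

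**Figure D1:**
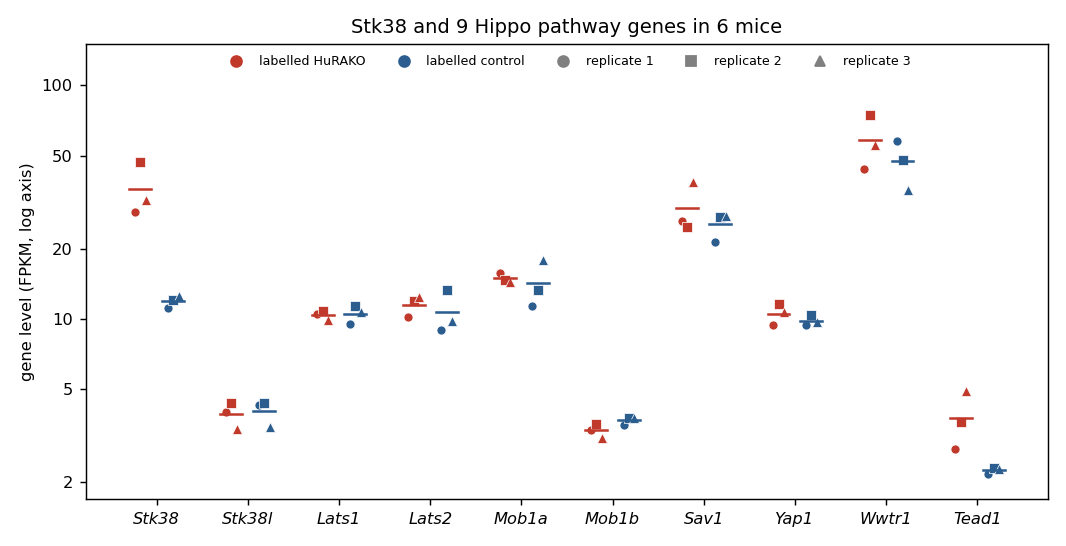
Level of each of the 10 genes (FPKM, log axis) in the 3 libraries labelled HuRAKO (left of each pair, red) and the 3 labelled control (right, blue), with 1 point per mouse, its shape giving the replicate number, and a line at the group mean. Stk38 and Tead1 are the genes whose groups do not overlap, and Stk38 averages 36.0 FPKM against 11.9 FPKM in control.

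Both listed Stk38 transcripts were higher in the libraries labelled HuRAKO. The major one, Stk38-201, was measured at 48.0, 76.7 and 52.0 FPKM in HuRAKO, and at 22.9, 24.6 and 25.1 FPKM in control libraries. The minor one, Stk38-202, was measured at 2.48, 3.89 and 2.42 FPKM in HuRAKO, and at 0.960, 1.51 and 0.787 FPKM in control libraries. The groups overlapped for neither transcript, where 6.49% of all tested transcripts were higher with no overlap. The balance between them stayed close, since Stk38-201 held 95.1% to 95.6% of the summed transcript level in HuRAKO and 94.2% to 97.0% in control libraries.

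The size of the difference depended on which deposited value was read. Summed over its transcripts, Stk38 reached 61.8 ± 16.4 FPKM in HuRAKO against 25.3 ± 1.22 FPKM in control libraries, a fold of 2.45 in place of 3.01. The gene value was 0.570, 0.582 and 0.592 of that sum in HuRAKO, and 0.469, 0.463 and 0.486 of it in control libraries. The groups did not overlap in this ratio, but it uses the gene value that chose Stk38 and carries no test. How many of all genes separate in this ratio was not computed. A ratio under 1 is not particular to Stk38: over the 6 mice it was 0.439 to 0.474 for Yap1, 0.566 to 0.587 for Mob1b, 0.596 to 0.679 for Lats2, 0.613 to 0.698 for Sav1 and 0.221 to 0.467 for Tead1. It was 0.818 to 0.932 for Stk38l, 0.897 to 0.937 for Mob1a, 0.981 to 0.983 for Wwtr1 and 0.995 to 1.01 for Lats1. Why the gene value is below the sum of the listed transcripts was not tested.

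HuR is known to bind AU-rich elements, runs of A and U in the 3′-UTR of mRNAs of which the pentamer ATTTA (written as DNA) is the core. The 3′-UTR of each member's most abundant listed transcript was searched for ATTTA on the mRNA strand alone, with exon positions from GENCODE M21. The 3′-UTR of Stk38-201 (1666 bases, from a transcript version other than the one in the files) held 2 copies, or 1.20 per kilobase, close to the median of 1.24 per kilobase over the 12438 tested genes with a 3′-UTR (quartiles 0 and 2.60). The pentamer is common, since 66.7% of those genes hold it. Both Stk38 copies are shown with 10 bases on each side, 5′ to 3′ on the mRNA strand. Both copies of its paralogue Stk38l are shown too, with 1 of the 7 copies of Tead1, which had the densest copies among the transcripts searched. Capitals mark the pentamer.
Stk38 copy 1, chr17:28971447-28971471, minus strand: gaaacactgaATTTAgcacaaagtg
Stk38 copy 2, chr17:28971202-28971226, minus strand: agaggatagaATTTAagacttataa
Stk38l copy 1, chr6:146777105-146777129, plus strand: tcagctcctgATTTAttttggtgag
Stk38l copy 2, chr6:146777839-146777863, plus strand: aaataatgtaATTTAagtgataaaa
Tead1 copy 4, chr7:112899400-112899424, plus strand: tatatagtatATTTAaaaatgtaaa

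All 9 partners held the pentamer as well. Mob1b, with the longest 3′-UTR of the set at 8048 bases, had 16 copies, Lats1 had 10 in 3450 bases, Wwtr1 9 in 3277 bases, Lats2 6 in 1626 bases and Yap1 5 in 2498 bases. Mob1a had 4 in 3523 bases, Stk38l 2 in 3091 bases and Sav1 1 in 1128 bases. Tead1 had 7 copies in 1330 bases, which is 5.26 per kilobase. Per kilobase, Stk38 thus ranked below Tead1, Lats2, Lats1, Wwtr1, Yap1 and Mob1b, and above Mob1a, Sav1 and Stk38l. A match is a description of the sequence and no evidence that HuR binds there.

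**Figure D2:**
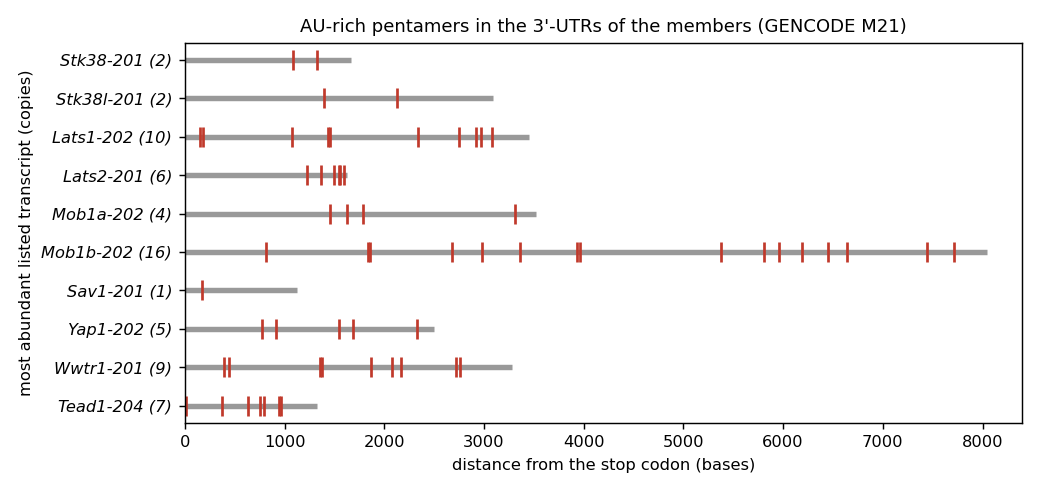
Grey bars give the length of the annotated 3′-UTR of each member's most abundant listed transcript in bases after the stop codon, and red ticks the positions of the pentamer, with the number of copies in brackets. Stk38 carries 2 copies, both in the far part of its 3′-UTR, and Mob1b carries 16.

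Stk38l (ENSMUSG00000001630.13, chr6:146724995-146778812, plus strand), which encodes the second NDR kinase, passed none of the thresholds. It was measured at 4.02, 4.38 and 3.38 FPKM in HuRAKO, and at 4.27, 4.36 and 3.44 FPKM in control libraries. The groups overlapped almost completely, and the log2 fold change was -0.03 (95% interval -0.34 to 0.29, adjusted p = 0.973 from limma). Its transcript Stk38l-201 held 84.9% ± 9.08 of its transcript level in HuRAKO and 93.4% ± 5.93 in control libraries (SD, n = 3 each).

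Within the NDR pair, Stk38 held a larger share in the libraries labelled HuRAKO. It made up 87.7%, 91.5% and 90.5% of the summed FPKM of both genes in HuRAKO, and 72.4%, 73.5% and 78.5% in control libraries. The lowest HuRAKO share was above the highest control share, with means of 89.9% ± 1.94 and 74.8% ± 3.28 (SD). The pair summed to 39.9 ± 9.98 FPKM in HuRAKO against 16.0 ± 0.481 FPKM in control libraries. These shares use the value that chose Stk38 and carry no test. They also hold for the gene values alone. Summed over transcripts, the means were 61.8 FPKM in HuRAKO and 25.3 FPKM in control libraries for Stk38, and 4.54 and 4.45 FPKM for Stk38l. Shares were not computed from those sums.

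**Figure D3:**
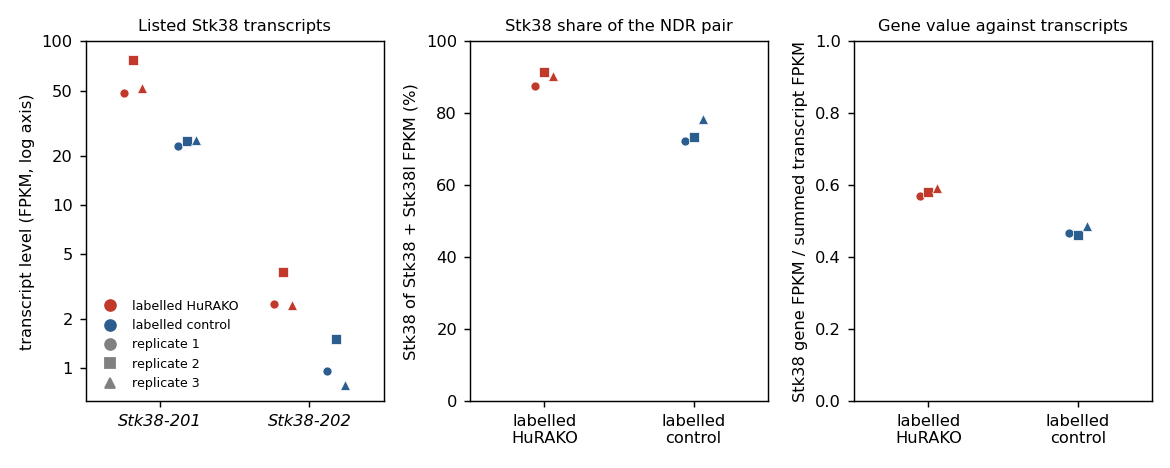
Left, FPKM of the 2 listed Stk38 transcripts on a log axis; middle, Stk38 as a percentage of Stk38 + Stk38l FPKM; right, Stk38 gene FPKM divided by the summed FPKM of its listed transcripts, each with 1 point per mouse, libraries labelled HuRAKO in red on the left and control in blue on the right. The groups do not overlap in any of the panels, with shares of 87.7% to 91.5% in HuRAKO against 72.4% to 78.5% in control. Each panel rests on Stk38, which was chosen by its gene value, so no test is given.

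The study's thresholds ask for a fold over 1.5 at an unadjusted p under 0.05, and the fold was read here on the log2(FPKM + 1) scale. None of the 9 partners passed them in either direction, where 337 of 12847 genes did (2.62%), 163 of them higher (1.27%) and 174 lower (1.35%). Between FPKM means the fold of Tead1 was 1.68, over 1.5, so the count of 0 depends on that scale. At an adjusted p under 0.05 the count was again 0 of 9, where 1 gene of 12847 passed (0.00778%). At an unadjusted p under 0.05 alone it was 1 of 9, Tead1, where 8.03% of all genes were. Of the 9 log2 fold changes, 6 were above 0 and 3 below, with a median of 0.09, and the median over all genes was -0.01. Tead1 was also the only partner whose groups did not overlap, where 7.04% of all genes were higher with no overlap.

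The LATS kinases, which phosphorylate YAP and TAZ directly, did not pass any threshold. Lats1 (ENSMUSG00000040021.13, chr10:7681214-7716460) was measured at 10.5, 10.8 and 9.91 FPKM in HuRAKO, and at 9.54, 11.4 and 10.7 FPKM in control libraries. Its HuRAKO values lay within the control range, with a log2 fold change of -0.02, a 95% interval of -0.27 to 0.24 and an adjusted p = 0.985 from limma. Lats2 (ENSMUSG00000021959.16, chr14:57689662-57758388) was measured at 10.2, 11.97 and 12.4 FPKM in HuRAKO, and at 9.003, 13.4 and 9.76 FPKM in control libraries. Its groups overlapped too, with a log2 fold change of 0.11, a 95% interval of -0.29 to 0.51 and an adjusted p = 0.891 from limma.

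A second row named Lats2 (ENSMUSG00000114942.1, chr14:57642077-57746103) was kept apart. GENCODE M21 calls that locus Gm49361, and it overlaps Lats2 over 56442 bases and Xpo4 over 23354 bases on the same strand, so that reads in the shared parts could be assigned to either row. It was listed at 0, 1.91 and 3.25 FPKM in HuRAKO, and at 0, 0 and 1.90 FPKM in control libraries. With 3 of 6 mice at 0 its values overlapped between the groups, and it enters no count of partners.

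The MOB coactivators, which bind LATS and NDR kinases and hold them active, did not pass the test either. Mob1a (ENSMUSG00000043131.14, chr6:83326016-83343776) was measured at 15.7, 14.7 and 14.5 FPKM in HuRAKO, and at 11.3, 13.3 and 17.95 FPKM in control libraries. The HuRAKO libraries lay inside the wider control range, with a log2 fold change of 0.09, a 95% interval of -0.32 to 0.50 and an adjusted p = 0.913 from limma. Mob1b (ENSMUSG00000006262.15, chr5:88720855-88764220) was measured at 3.35, 3.57 and 3.09 FPKM in HuRAKO, and at 3.52, 3.78 and 3.76 FPKM in control libraries. Only HuRAKO replicate 2 reached into the control range, and the log2 fold change was -0.11 (95% interval -0.35 to 0.12, adjusted p = 0.815 from limma).

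Sav1 (ENSMUSG00000021067.8, chr12:69965012-69987002), the scaffold of the MST kinases, was measured at 26.3, 24.7 and 38.4 FPKM in HuRAKO, and at 21.4, 27.3 and 27.6 FPKM in control libraries. One mouse, HuRAKO replicate 3, was above all others, and the remaining values overlapped (log2 fold change 0.21, 95% interval -0.27 to 0.68, adjusted p = 0.832 from limma). Sav1 shares 1406 bases with Atl1 on the opposite strand. The sources name different library kits, so whether the reads keep their strand is uncertain, and reads of the overlap may belong to either gene.

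The coactivators YAP and TAZ carry the output of the pathway. Yap1 (ENSMUSG00000053110.13, chr9:7931999-8004596) was measured at 9.42, 11.6 and 10.7 FPKM in HuRAKO, and at 9.41, 10.4 and 9.72 FPKM in control libraries, with a log2 fold change of 0.09, a 95% interval of -0.18 to 0.36 and an adjusted p = 0.870 from limma. Wwtr1 (ENSMUSG00000027803.14, chr3:57455649-57575910) was measured at 44.0, 74.8 and 55.5 FPKM in HuRAKO, and at 57.8, 48.0 and 35.6 FPKM in control libraries. The highest Wwtr1 value was again in HuRAKO replicate 2 and the lowest in control replicate 3, but the groups overlapped (log2 fold change 0.29, 95% interval -0.31 to 0.89, adjusted p = 0.815 from limma). Wwtr1 made up 82.4% to 86.6% of the summed FPKM of both coactivators in HuRAKO and 78.6% to 86.0% in control libraries, so TAZ mRNA was the more abundant of the pair in every mouse. Yap1 overlaps the antisense transcript Gm20416 over 11167 bases, with the same limit on strand.

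Tead1 (ENSMUSG00000055320.17, chr7:112679318-112906807), a DNA-binding partner of YAP and TAZ, was measured at 2.79, 3.62 and 4.93 FPKM in HuRAKO, and at 2.18, 2.31 and 2.28 FPKM in control libraries. Every HuRAKO library was above every control library, and the HuRAKO libraries were spread widely while the control libraries were nearly alike. The means were 3.78 ± 1.08 FPKM in HuRAKO and 2.26 ± 0.0691 FPKM in control libraries (SD, n = 3 each), a fold of 1.68. On the log2(FPKM + 1) scale, which understates changes of low genes, the difference was 0.53 ± 0.17 (SE), just under the study's fold threshold of 0.58, with an unadjusted p under 0.05 and an adjusted p = 0.518 from limma. With a pseudocount of 0.1 FPKM it was 0.68, and without HuRAKO replicate 1 it was also 0.68, both past the study's thresholds, and without HuRAKO replicate 3 it was 0.36. Without control replicate 1 its unadjusted p was no longer under 0.05, which takes the count of partners to 0 of 9. Summed over its listed transcripts, Tead1 was at 6.58, 7.75 and 22.3 FPKM in HuRAKO, and at 5.04, 9.23 and 9.73 FPKM in control libraries, so that the groups overlapped in that value (log2 difference 0.41). The endothelial, smooth muscle and mesothelial marker sums were separated between the same 2 groups of libraries. In HuRAKO replicate 3, where Tead1 was highest, the centred median of the smooth muscle list was its lowest (-0.50). The sum of that list was 372 FPKM there, against 341 FPKM in HuRAKO replicate 1 and 194 to 261 FPKM in control libraries. The part of these cells in Tead1 was not tested.

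**Figure D4:**
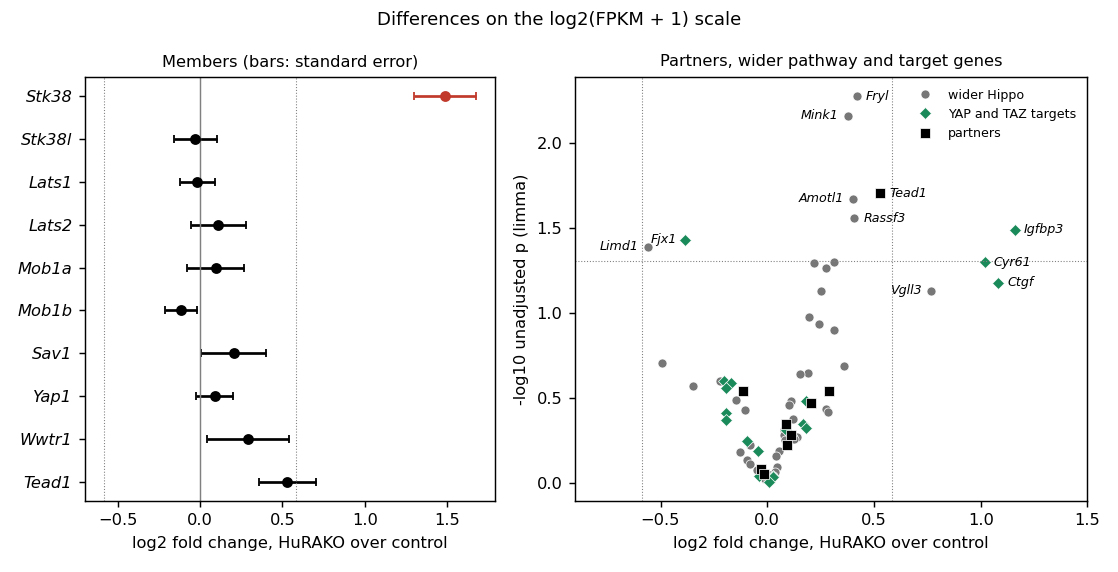
Left, log2 fold change of HuRAKO over control on the log2(FPKM + 1) scale with its standard error for the 10 genes, dotted lines marking a fold of 1.5 in each direction. Right, the same log2 fold change against -log10 of the unadjusted limma p for the partners, the wider pathway and the YAP and TAZ target genes, where Igfbp3 lies past both dotted lines and Tead1 (0.53) just short of the fold.

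By level, Stk38 stood at place 2 of the 10 genes in libraries labelled HuRAKO, between Wwtr1 at 58.1 ± 15.6 FPKM and Sav1 at 29.8 ± 7.49 FPKM, and its spread overlapped that of Sav1. In control libraries it stood at place 4, at 11.9 ± 0.699 FPKM, below Wwtr1 at 47.2 ± 11.1, Sav1 at 25.4 ± 3.50 and Mob1a at 14.2 ± 3.40 FPKM. Under it came Lats2 at 10.7 ± 2.33, Lats1 at 10.5 ± 0.926 and Yap1 at 9.83 ± 0.488 FPKM in control libraries, and from Mob1a to Yap1 each gene lay within the spread of its neighbour, so their order is not fixed. The low end in control libraries was formed by Stk38l at 4.02 ± 0.507, Mob1b at 3.69 ± 0.143 and Tead1 at 2.26 ± 0.0691 FPKM, of which Stk38l and Mob1b did not differ beyond their spread. These places hold for the gene value: by summed transcript FPKM, Stk38 at 61.8 FPKM stood above Wwtr1 at 59.2 FPKM in HuRAKO, within their spread, and at 25.3 FPKM it stood between Sav1 at 38.0 and Yap1 at 22.4 FPKM in control libraries.

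The transcripts of the partners were tested separately, and 0 of the 23 tested passed the study's thresholds, where 4.59% of 23233 transcripts did, and 0 had an adjusted p under 0.05, where 0.0603% did. The shares of the most abundant transcript were compared for the 7 partners with more than 1 listed transcript by a two-sided exact permutation test, which cannot go below p = 0.1 with 3 mice against 3. The exact p lay between 0.2 and 0.4, and every value adjusted over the 7 genes was 0.4. The widest difference was in Tead1, whose transcript Tead1-204 held 20.8% ± 11.3 of the summed level of 7 listed transcripts in HuRAKO against 39.3% ± 9.94 in control libraries. Lats2-201 held 66.6% ± 17.3 of the Lats2 transcripts in HuRAKO and 50.2% ± 11.8 in control libraries, and Yap1-202 held 71.2% ± 16.0 of the Yap1 transcripts in HuRAKO and 81.5% ± 9.33 in control libraries. Wwtr1-202 was listed at 2.43, 2.29 and 0 FPKM in HuRAKO, and at 0.00596, 0.0118 and 0.0438 FPKM in control libraries. Its HuRAKO replicate 3 was below all control libraries, and its adjusted p was 0.757 from limma.

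The wider pathway was described with 48 further genes, among them the upstream MST, MAP4K and TAO kinases, the NDR cofactors Fry and Fryl, the STRIPAK phosphatase subunits and other TEAD and VGLL factors. Of these, 47 were listed and tested, and 0 were higher and 0 were lower past the study's thresholds. Between FPKM means Limd1 was lower by a fold of 1.61, over the study's fold threshold, at an unadjusted p under 0.05 from limma. The count of 0 lower thus depends on reading the fold on the log2 scale. By limma, 5 had an unadjusted p under 0.05, where 8.03% of all genes did, and 0 had an adjusted p under 0.05. Of the 47 log2 fold changes, 34 were above 0 and 13 below, where 46.8% of all genes were above 0, and the median was 0.08. The groups did not overlap in 10 genes that were higher (7.04% of all genes) and in 0 that were lower (7.68% of all genes).

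Fryl, a homologue of the large scaffold Furry that binds NDR kinases, had the smallest p of the wider list. It was measured at 7.67, 7.86 and 6.71 FPKM in HuRAKO, and at 5.42, 5.29 and 5.14 FPKM in control libraries. The groups did not overlap, and the log2 fold change was 0.42 ± 0.10 (SE, adjusted p = 0.416 from limma). Mink1, a MAP4K family kinase upstream of LATS, was measured at 14.3, 13.1 and 13.4 FPKM in HuRAKO, and at 9.72, 10.5 and 10.6 FPKM in control libraries. Its groups did not overlap either, and the log2 fold change was 0.38 ± 0.10 (adjusted p = 0.442 from limma).

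Amotl1, an angiomotin that tethers YAP, was measured at 37.4, 33.6 and 32.5 FPKM in HuRAKO, and at 26.6, 29.2 and 22.2 FPKM in control libraries. Its groups did not overlap, with a difference of 0.40 ± 0.13 on the log2 scale (SE, adjusted p = 0.530 from limma). Rassf3, a RASSF family member, had a log2 fold change of 0.41 ± 0.14, and Dchs1, a large cadherin and ligand of FAT4, one of 0.31 ± 0.13, both with no overlap between the groups and adjusted p-values of 0.563 and 0.619 from limma. Limd1, an Ajuba family protein that inhibits LATS, was measured at 5.90, 5.31 and 5.45 FPKM in HuRAKO, and at 9.55, 11.3 and 5.89 FPKM in control libraries. Control replicate 3, the library that stood apart, was close to the HuRAKO libraries, and the log2 fold change of -0.56, with an adjusted p = 0.607 from limma, was -0.80 without it, past the study's thresholds.

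Target genes that YAP and TAZ are known to switch on did not move as 1 group. Of 22 named, 20 were listed and tested, 11 with a log2 fold change above 0 and 9 below, and the median was 0.02. Past the study's thresholds 1 of the 20 was higher and 0 were lower (1.27% and 1.35% of all genes). Between FPKM means Fjx1 was lower by a fold of 1.96, over the study's fold threshold, so the count of 0 lower depends on the log2 scale. Lats2, Amotl2 and Ptpn14 stand in this list as well as among the genes above, since they are both parts and targets of the pathway. An unadjusted p under 0.05 was found for 2 of the 20, Igfbp3 and Fjx1 (8.03% of all genes), and an adjusted p under 0.05 for 0, both by limma.

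Igfbp3, which encodes a binding protein of insulin-like growth factors, was the target past the thresholds. It was measured at 16.8, 46.1 and 32.5 FPKM in HuRAKO, and at 18.3, 13.9 and 7.78 FPKM in control libraries. The groups overlapped, since HuRAKO replicate 1 was below control replicate 1, and the log2 fold change was 1.16 ± 0.43 (SE, adjusted p = 0.584 from limma). Its unadjusted p was no longer under 0.05 without control replicate 2 (log2 fold change 1.22), control replicate 3 (0.84), HuRAKO replicate 2 (0.84) or HuRAKO replicate 3 (1.09), nor with the replicate number as a block.

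Cyr61 and Ctgf, which encode secreted matrix proteins and are the most used readouts of YAP activity, stood near the threshold. Cyr61 was measured at 44.5, 44.4 and 98.4 FPKM in HuRAKO, and at 17.3, 42.8 and 29.9 FPKM in control libraries, and Ctgf at 19.4, 23.2 and 38.6 FPKM in HuRAKO, and at 5.18, 14.3 and 20.7 FPKM in control libraries. Cyr61 had no overlap between groups and Ctgf had some, with HuRAKO replicate 3 the highest for both. Their log2 fold changes were 1.02 ± 0.42 for Cyr61 (adjusted p = 0.619 from limma) and 1.08 ± 0.49 for Ctgf (adjusted p = 0.650 from limma). With the replicate number as a block both passed the study's thresholds, so the count of higher targets became 2 and no longer held Igfbp3. Both genes are also made by vascular and stromal cells. Endothelial and smooth muscle marker sums are given above. The 10 progenitor markers of the stroma summed to 519 to 570 FPKM in libraries labelled HuRAKO and 569 to 1017 FPKM in control libraries. Of their log2 fold changes 3 were above 0, and 0 passed the study's thresholds. The part of all those cells in Cyr61 and Ctgf was not tested.

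The other named targets did not pass the thresholds with the fold read on the log2 scale. Fjx1, a secreted Golgi kinase-like protein, was measured at 0.611, 0.377 and 0.456 FPKM in HuRAKO, and at 0.731, 0.788 and 1.31 FPKM in control libraries. Its groups did not overlap, and the log2 fold change was -0.38 ± 0.15 (adjusted p = 0.592 from limma), at levels near the pseudocount of 1 FPKM. Ccdc80 and Rbms3 had log2 fold changes of -0.20 and -0.17 with adjusted p-values of 0.800 and 0.802 from limma.

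The genes whose profile over the 6 mice was most like that of Stk38 were Zfp949, Jade3, Plekhg1, Apln and Tmem70. Likeness was the root mean square difference between log2(FPKM + 1) values centred on each gene's mean, which was 0.24 for Zfp949, 0.30 for Jade3, 0.30 for Plekhg1, 0.31 for Apln and 0.31 for Tmem70, against a median of 0.80 over all genes. Acta2, a smooth muscle marker given above, came shortly after them at 0.33 and was also highest in HuRAKO replicate 2. This measure counts the size of a difference as well as its pattern. With log2 fold changes of 0.53 or less, against 1.49 for Stk38, the partners were thus bound to fall outside these 5. Plekhg1 was measured at 3.28, 6.66 and 3.85 FPKM in HuRAKO, and at 2.18, 1.59 and 1.501 FPKM in control libraries, with the same peak in HuRAKO replicate 2 as Stk38. Apln, which encodes the peptide hormone apelin, was measured at 4.29, 5.97 and 4.68 FPKM in HuRAKO, and at 2.34, 2.14 and 1.71 FPKM in control libraries. Tmem70, which helps to assemble ATP synthase in mitochondria, was measured at 23.4, 19.95 and 23.0 FPKM in HuRAKO, and at 8.56, 7.68 and 6.63 FPKM in control libraries, without that peak. These genes were found with the same values that chose Stk38, over 6 mice that share 2 group labels, so no test is given.

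**Figure D5:**
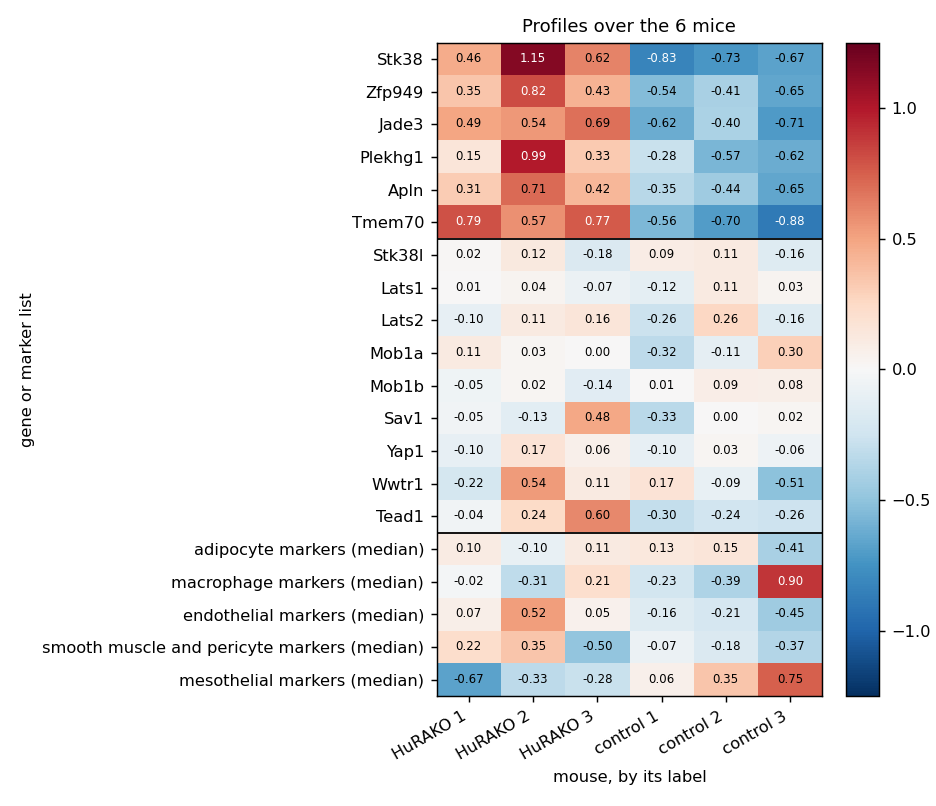
Log2(FPKM + 1) minus the mean of the 6 mice, with libraries labelled HuRAKO in the left columns and control in the right columns, for Stk38 and the 5 genes most like it (top), the 9 partners (middle) and the median over each marker list (bottom). Stk38 is above its mean in all 3 HuRAKO libraries, most in replicate 2 (1.15), while no partner is above its mean in all HuRAKO libraries and below it in all control libraries.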

How the data were processed

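RNA was taken from epididymal adipose tissue, and the authors deposited the FPKM of genes and of transcripts in 6 mice, grouped here by the titles and mouse numbers of the labels. Per the labels, reads were aligned with Bowtie 0.12.2 to GRCm38. The program that gave FPKM is not given in the sources used here. The labels and the study's methods name different library kits and instruments, so strandedness is uncertain. Since the depth of the libraries is unknown, precision was judged from the spread between mice alone. An empty line (1 in each file) is not analysed here, and 0 columns of values were left out.

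Values were taken as log2(FPKM + 1) from the deposited FPKM. Features averaging 0.5 FPKM or more (12847 genes, 23233 transcripts) were fitted with limma 3.58.1 in R 4.3.3, with two-sided tests and Benjamini-Hochberg adjustment over all genes or all transcripts, and intervals of 95% from the same fit. The study's thresholds (unadjusted p under 0.05, fold over 1.5) were read from that fit. The fold was thus taken on the log2(FPKM + 1) scale, which is stricter for low genes than a fold of FPKM means. The shares of transcripts were compared by exact permutation. The members, the gene lists and the rules were chosen with earlier results of these data known. Named genes were all members, Elavl1, the genes past the thresholds and otherwise the 6 with the smallest p of each list, and the 5 genes most like Stk38. Marker genes and the genes of the closing observations were chosen with their values seen. Sequences and gene overlaps came from GRCm38 with GENCODE M21. Other work was done in Python 3.11.15 (scipy 1.17.1, numpy 2.4.6, matplotlib 3.10.9, pandas 2.3.3), and the fit was tested on simulated data.

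Both groups carry replicate numbers 1 to 3, whose meaning no label gives. Deviations of same-numbered mice from their group means correlated over genes with r = 0.101, 0.175 and 0.220, each over the limit of 0.1 set for pairing, although HuRAKO replicate 2 and control replicate 1 gave 0.106. Over transcripts, same-numbered mice gave r = 0.040, 0.055 and 0.088, each under that limit. Because of the gene values, a fit with the number as a block was run as an alternative. It stood beside other pseudocounts, filters, scalings and variance models, sample weights and leaving out each mouse.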

Additional observations from a re-analysis of the deposited data

How the results depend on the processing

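Stk38 kept its direction in every alternative, with log2 fold changes of 1.23 to 1.63. The lowest came from summed transcript FPKM, an alternative chosen after seeing the data. Since these values chose Stk38 and its groups did not overlap, leaving out a mouse could not turn the sign. The range thus describes the size of the difference and is no further support for it. The same holds for the Stk38 share of the NDR pair from gene values. It exceeded control by 13.9 to 17.0 percentage points when each mouse was left out. That range does not cover summed transcript FPKM, from which the share was not computed. The count of partners past the study's thresholds was 1 with a pseudocount of 0.1 and 0 to 1 when a mouse was left out, the 1 being Tead1 without HuRAKO replicate 1. The count of partner transcripts was 0 to 2 when a mouse was left out: 1 of Lats2 without control replicate 1, 1 of Lats2 and 1 of Tead1 without HuRAKO replicate 1, 1 of Tead1 without HuRAKO replicate 2 and 1 of Wwtr1 without HuRAKO replicate 3. Differences near 0 turned sign. For Stk38l they were 0.024 from summed transcripts and -0.12 to 0.054 when a mouse was left out, above 0 without control replicate 1 or 2 or HuRAKO replicate 3. For Lats1 they were 0.013 with a common sum and -0.081 to 0.035 when a mouse was left out, above 0 without control replicate 2 or HuRAKO replicate 3. For Mob1a they were -0.045 to 0.27 when a mouse was left out, below 0 without control replicate 1. In the wider pathway, array weights gave 1 higher (Vgll3) and 1 lower (Limd1), a pseudocount of 0.1 gave 1 lower (Limd1), and leaving out a mouse gave 0 to 1 higher (Map4k1 without control replicate 3, Vgll3 without HuRAKO replicate 1) and 0 to 1 lower (Limd1 without control replicate 3). The count of higher targets was 2 with a common sum, median ratio scaling, a mean-variance trend or array weights, 0 without moderation of the variance, and 0 to 1 when a mouse was left out, with 0 without HuRAKO replicate 2 or 3, and Cyr61 without control replicate 2 and Ctgf without control replicate 3 in place of Igfbp3. The count of lower targets was 1 with a pseudocount of 0.1 (Fjx1). With the number as a replicate block, the count of higher targets was 2, the partners stayed at 0, and no other count of calls moved by over 1.5 times (187 genes higher and 197 lower in all). Over all genes, 102 were higher and 111 lower without moderation, 329 were lower with a pseudocount of 0.1, and 314 were lower without control replicate 1 (171 to 314 when a mouse was left out). Where the text names no reason, the cause was not tested. With 3 mice a group and unknown depth, the intervals of the partners allow differences of up to 0.94 on the log2 scale, so a partner that passed no threshold is not shown to be equal in both groups.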

Other observations

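The head of the pathway and its other DNA-binding factors were also listed, and are given here because of their role, with their values seen. Stk4, which encodes MST1, was measured at 11.4, 10.2 and 9.79 FPKM in libraries labelled HuRAKO, and at 7.39, 8.68 and 13.1 FPKM in libraries labelled control. Stk3, which encodes MST2, was measured at 5.04, 5.66 and 4.30 FPKM in HuRAKO, and at 6.07, 3.69 and 4.83 FPKM in control libraries. Both overlapped between the groups, with adjusted p-values of 0.8998 for Stk4 and 0.966 for Stk3 from limma. Nf2, the upstream activator Merlin, was measured at 14.0, 14.3 and 14.4 FPKM in HuRAKO, and at 14.0, 13.6 and 11.9 FPKM in control libraries, the groups all but touching, at a log2 difference of 0.11 and an adjusted p = 0.828 from limma.

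Of the other TEAD factors, Tead4 differed by 0.31 on the log2 scale, Tead2 by 0.12 and Tead3 by -0.22, with adjusted p-values of 0.734, 0.862 and 0.800 from limma, and none of them showed the separation of groups seen for Tead1. Vgll3, a cofactor that binds TEAD factors, was measured at 10.8, 26.5 and 23.6 FPKM in HuRAKO, and at 14.0, 7.82 and 11.2 FPKM in control libraries. HuRAKO replicate 1 lay among the control libraries, and the log2 fold change was 0.77 (SE 0.36, adjusted p = 0.660 from limma). Without that mouse it passed the study's thresholds, with a log2 fold change of 1.15.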
